A study of Mus musculus with 72 samples.

Results

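High dietary isoleucine was compared with the control content in the livers of 3 classes of mice, pooled. The classes were females of the B6 strain (B6F), females of DBA/2J (DBAF) and males of DBA/2J (DBAM). The 36 libraries used are those that the strain, sex and diet labels place in these classes and in the diets WD High Ile or WD Control, out of 72 libraries in the series. Each class held 6 high isoleucine and 6 control libraries, so that 18 stood against 18, and class was a blocking term of the fit. Males of B6 (B6M, 6 high isoleucine and 6 control libraries) were left out of the pooled estimate and appear only where it is set against theirs.

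All of these mice, controls included, ate a Western diet (WD) for 12 weeks and were fasted for 16 h before the liver was taken, and the strains carry no named engineered allele. The strain field spells the B6 strain C56BL/6J, where the design text has C57BL/6J. The design text puts 6 weeks as the age at which feeding began, while 18 weeks stands in the treatment text and in the age field. No batch and no hour of sampling are given. The titles combine a number with the letter N or R, each number lies within one diet group of its class, and separate animals are not stated, so the p-values measure a spread between libraries that may be technical in part.

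Isoleucine is a branched-chain amino acid. Bcat2 moves its amino group away, the dehydrogenase built from Bckdha, Bckdhb, Dbt and Dld commits the carbon chain to breakdown, Bckdk and Ppm1k switch that dehydrogenase off and on, and the products enter as acetyl-CoA and propionyl-CoA. Amino acid shortage is sensed by the kinase Eif2ak4, which raises the transcription factor ATF4 and its targets such as Ddit3 (CHOP) and Fgf21, while supply is signalled to mTORC1 through sensors such as Sesn2. In liver the transcription factor SREBP-2 (Srebf2) drives cholesterol synthesis, and stellate cells deposit collagen when activated, as they can be on a Western diet.

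In units of 1e6 expected counts, library totals ran from 18.1 to 34.8 with a median of 24.3, and 14567 of 50307 genes passed the filter on low counts. Hepatocyte markers were present throughout, with a summed level of 75130 to 123000 CPM (counts scaled to 1e6 per library) in the high isoleucine libraries and 77340 to 113000 CPM in the controls. A pair of libraries stood apart from their groups in Ddx3y, a Y-linked gene. B6F control replicate 4 had 0.568 CPM where every other female library of the 36 had 0, and DBAM high isoleucine replicate 3 had 15.9 CPM, with 35.9 CPM in the next lowest library of its group and 20.7 CPM in the lowest DBAM control. Both were kept, and the counts that matter are also given without them.

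No gene differed between high isoleucine and control over the 3 classes. Of 14567 genes tested, 0 (0%) had an adjusted p under 0.05 in edgeR's quasi-likelihood test with Benjamini-Hochberg adjustment, and DESeq2 also called 0. At an unadjusted p under 0.05 there were 911 genes (6.25%), of which 470 (3.23%) were higher and 441 (3.03%) lower. The split depended on level. There were 124 lower and 37 higher among 2323 genes under 1 CPM, and 206 and 152 among 4762 genes at 1 to 10 CPM. It was 83 lower and 267 higher among 6231 genes at 10 to 100 CPM, and 28 and 14 among 1251 genes above that. Shares of all genes set beside the lists below are not matched for level. The median log2 fold change over all genes was 0.00269, and the 5th and 95th percentiles lay at -0.281 and 0.199. The effect had the same sign in all 3 classes for 4176 genes (28.7%; 14.9% on the higher side and 13.8% on the lower side), and 400 (2.75%) higher and 374 (2.57%) lower genes met both conditions. Without DBAM high isoleucine replicate 3 the call count was 1, Ddit3, and 1441 genes (9.82%) had an unadjusted p under 0.05. Without both libraries named above there was again 1 call, Ddit3, and 1892 genes (13%) had an unadjusted p under 0.05.

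For most genes the data also limited how large a difference could be. A gene is called bounded here when its whole 95% interval lay within 0.322 of 0 on the log2 scale, which is a level up to 25% higher or the same ratio lower. This held for 8957 genes (61.5%), and 12500 genes (85.8%) were held inside 1.5-fold. The bound depended on level: it held for 0.732% of 2323 genes under 1 CPM, 50.1% of 4762 genes at 1 to 10 CPM, 88.3% of 6231 genes at 10 to 100 CPM and 84% of 1251 genes above that. The narrowest interval belonged to Washc2, a subunit of the endosomal WASH complex, with a log2 fold change of 0.06 ± 0.03 (SE) and an interval of -0.01 to 0.13. Cops3 of the COP9 signalosome (0.02) and Pmpca of the mitochondrial processing peptidase (0.01) were held almost as closely.

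The gene with the lowest p was Ddit3, which encodes the stress transcription factor CHOP (ENSMUSG00000025408, GRCm38 chromosome 10, 127290774 to 127296288). In B6F its level was 6.57, 7.56 and 8.19 CPM (lowest, median and highest of 6) with high isoleucine and 9.06, 10.9 and 13.6 CPM in controls. In DBAF it was 6.09, 7.81 and 9.54 CPM with high isoleucine and 6.84, 8.80 and 10.3 CPM in controls. In DBAM it was 6.07, 7.44 and 12.9 CPM with high isoleucine and 9.34, 11.2 and 16.3 CPM in controls. The B6F groups did not overlap; the DBAM groups overlapped only through high isoleucine replicate 3, which held the 12.9, and the DBAF groups overlapped widely. The pooled log2 fold change was -0.44 ± 0.09 (SE), with -0.57 in B6F, -0.16 in DBAF and -0.58 in DBAM, and 15 of 18 high isoleucine libraries lay below the control mean of their class. Such counts use the scaling of the 36-library fit, while the levels are scaled over all 72 libraries, which for Ddit3 gives 14 of 18. Its adjusted p was 0.577 by edgeR's quasi-likelihood test with Benjamini-Hochberg adjustment. Without DBAM high isoleucine replicate 3 the adjusted p in that test was 0.0408, and without both libraries in doubt it was 0.0256 with a log2 fold change of -0.51 ± 0.09 (SE); the library left out is the one that held the highest Ddit3 of its group, and leaving it out was considered after its values were seen.

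The next genes on the lower side, all with the same sign in the 3 classes and an adjusted p of 0.770 in edgeR's test, included several of connective tissue, ducts and blood cells. S100a11, a calcium-binding S100 protein, had 5.71, 8.83 and 12.4 CPM (lowest, median, highest) with high isoleucine and 6.98, 11.9 and 19.9 CPM in controls of B6F. In DBAF it had 1.98, 3.05 and 3.44 CPM with high isoleucine and 3.36, 4.19 and 4.67 CPM in controls, and in DBAM 2.40, 2.65 and 4.18 CPM with high isoleucine and 3.32, 4.48 and 6.60 CPM in controls. The groups overlapped in every class, yet 17 of 18 high isoleucine libraries lay below their control mean, and the log2 fold change was -0.49 ± 0.12 (SE). Fbln1, the matrix protein fibulin-1, had median levels with high isoleucine and in controls of 1.44 and 2.41 CPM in B6F, 0.519 and 0.778 CPM in DBAF, and 0.252 and 0.470 CPM in DBAM. Its log2 fold change was -0.87 ± 0.22 (SE), and 18 of 18 high isoleucine libraries were below their control mean.

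Eln, the elastin of vessel walls, had medians of 5.33 and 7.45 CPM in B6F, 2.39 and 2.60 CPM in DBAF and 1.71 and 2.75 CPM in DBAM, high isoleucine before control in each, and a log2 fold change of -0.48 ± 0.13 (SE; 18 of 18). Erbb2, a growth factor receptor kinase, was likewise below in 18 of 18 libraries, at -0.38 ± 0.11 (SE). Muc1, a mucin of duct epithelium, was at -0.80 ± 0.22 (SE), and 17 of 18 libraries lay below. The microtubule linker Clip2 was at -0.35, the caveolar protein Ehd2 at -0.34, the lactate dehydrogenase subunit Ldhb at -0.30 and the leukocyte actin-binding protein Lsp1 at -0.46, with 17 of 18 libraries below for each of these 4 genes. Mfge8, which bridges dying cells to phagocytes, was at -0.26, and the secreted glycoprotein Olfm1 at -0.27, with 16 of 18 below for both. These genes were ranked by p, so the counts of libraries describe the ranking and are no further evidence.

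**Figure D1:**
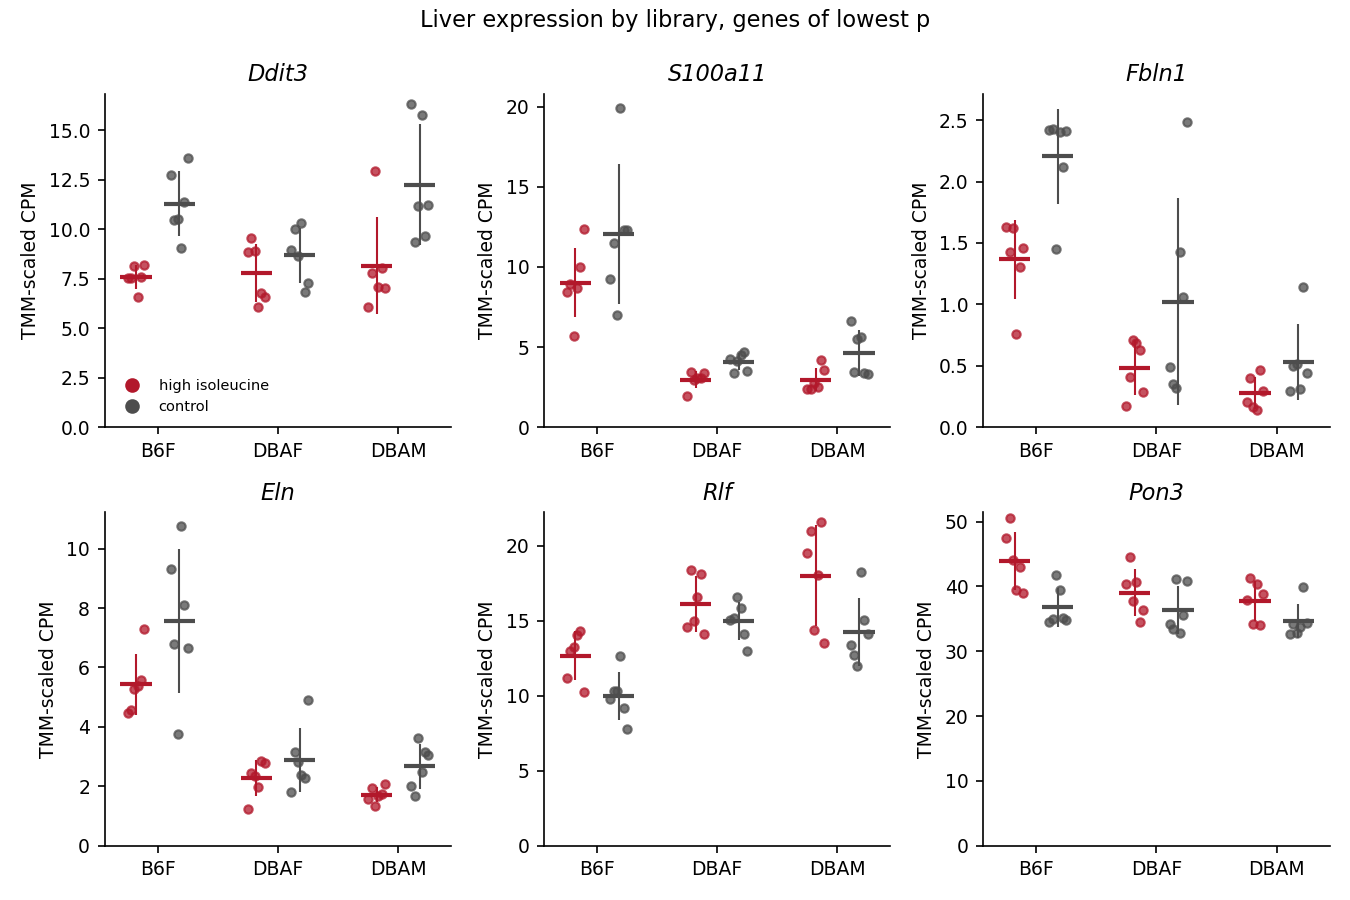
Level in CPM (vertical axes) of Ddit3, S100a11, Fbln1, Eln, Rlf and Pon3 in each of the 36 libraries, by class, with high isoleucine left of control; points are libraries and bars the mean and SD of 6. Ddit3 in B6F is separate, with 6.57 to 8.19 CPM against 9.06 to 13.6 CPM, while most other groups overlap.

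The genes of lowest p on the higher side had smaller differences. Rlf, a zinc finger protein of chromatin, had medians of 13.1 and 10.04 CPM in B6F, 15.8 and 15.1 CPM in DBAF, and 18.8 and 13.7 CPM in DBAM, in high isoleucine and control livers. Its log2 fold change was 0.27 ± 0.07 (SE), and 15 of 18 high isoleucine libraries lay above the control mean of their class. Pon3, a lactonase bound to high-density lipoprotein, had medians of 43.6 and 35.1 CPM in B6F, 39.0 and 34.96 CPM in DBAF, and 38.4 and 34.03 CPM in DBAM, high isoleucine first, and a log2 fold change of 0.16 ± 0.05 (SE; 15 of 18 above in the scaling of the fit and 14 in the levels given). The groups of both genes overlapped in every class.

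Polr3e, a subunit of RNA polymerase III, was at 0.17 ± 0.05 (SE) and Sav1, an adaptor of the Hippo kinases, at 0.14 ± 0.04 (SE), with 17 of 18 libraries above for both. Ireb2, the iron regulatory protein IRP2, was at 0.20, Cipc, an inhibitor of the clock protein CLOCK, at 0.19, and Arhgap29, a regulator of small GTPases, at 0.21. The toll-like receptor adaptor Tirap was at 0.26, the zinc finger gene Zfp790 at 0.29, the ubiquitin ligase Rnf144b at 0.30, Slx4ip, named for its partner SLX4, at 0.31, and Atad5, which unloads the sliding clamp PCNA, at 0.48. All 12 had an adjusted p of 0.770 in edgeR's quasi-likelihood test with Benjamini-Hochberg adjustment.

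Collagen and stellate cell genes lay lower as a list. All 21 of 22 listed genes that passed the filter had a pooled log2 fold change under 0, and 12 of 21 had an unadjusted p under 0.05, against 3.03% of all genes on the lower side, although none passed the adjusted test. Their median was -0.29, against 0.00269 over all genes, with -0.16 in B6F, -0.23 in DBAF and -0.31 in DBAM. Without both libraries in doubt the number was 11, with a median of -0.19 and 5.72% of all genes.

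Col3a1 and Col1a1, chains of the fibrillar collagens, led by p. Col3a1 had 19.2, 29.9 and 40.7 CPM (lowest, median, highest) with high isoleucine and 22.4, 33.8 and 50.8 CPM in controls of B6F. In DBAF it had 9.64, 11.4 and 11.6 CPM with high isoleucine and 10.7, 13.6 and 21.0 CPM in controls, and in DBAM 11.2, 13.3 and 18.3 CPM with high isoleucine and 10.9, 21.6 and 24.5 CPM in controls. The high isoleucine median was the lower one in each class and the ranges overlapped. The log2 fold change was -0.35 ± 0.11 (SE) for Col3a1 and -0.58 ± 0.19 (SE) for Col1a1. Col5a2, which joins type I fibrils, was at -0.34 ± 0.11 (SE) and Des, the desmin of stellate cells, at -0.25 ± 0.08 (SE).

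Some genes of the list lay close to 0. Dcn, a proteoglycan of the matrix, stood at -0.04, Reln, a secreted glycoprotein of resting stellate cells, at -0.03, and Lrat, which stores vitamin A as esters in those cells, at -0.02, and all of these were bounded. Acta2, the smooth muscle actin of activated stellate cells and vessel walls, was named after its values were seen because it had the largest estimate of the list, -1.16 ± 0.43 (SE). Its highest level was 5.92 CPM with high isoleucine and 14.9 CPM in controls of B6F, 9.47 CPM with high isoleucine and 29.4 CPM in controls of DBAF, and 2.31 CPM with high isoleucine and 11.9 CPM in controls of DBAM.

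**Figure D2:**
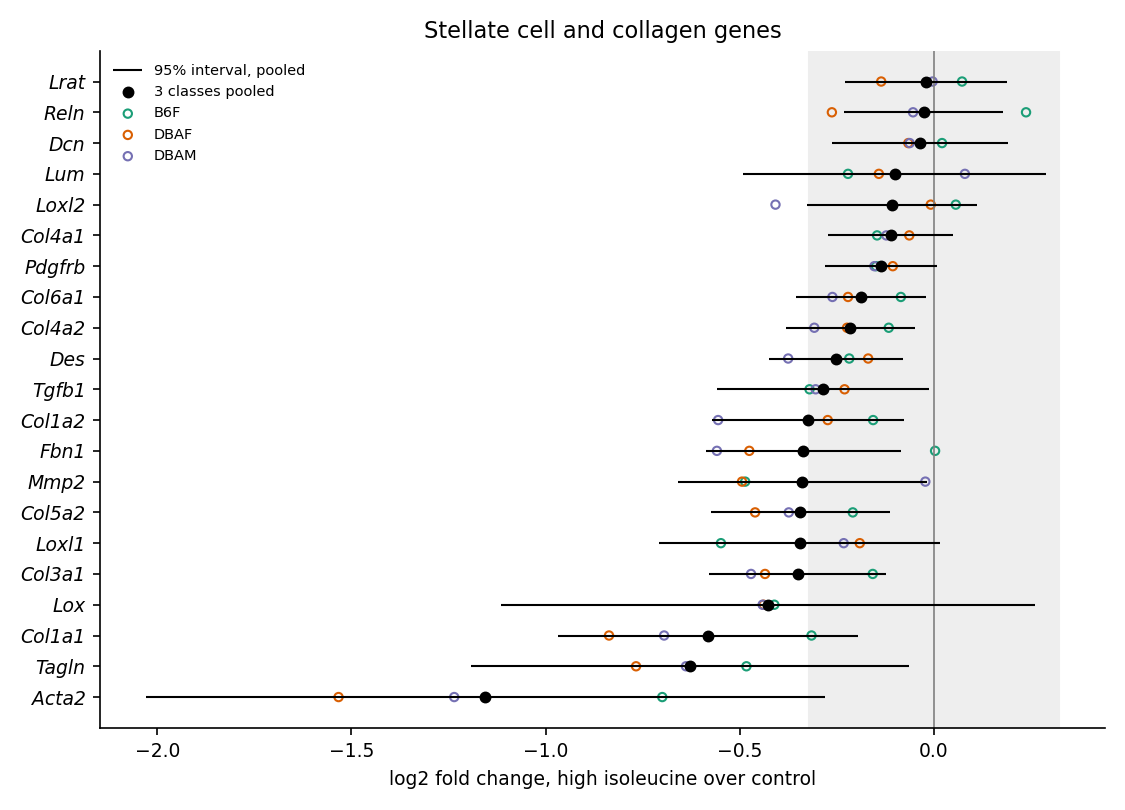
Log2 fold change of each stellate cell and collagen gene, high isoleucine over control (horizontal axis): black points and lines are the pooled estimate and its 95% interval, open circles the 3 class estimates, and the grey band the range from -0.322 to 0.322. All 21 pooled estimates lie left of 0, with Acta2 at -1.16, and Dcn, Reln and Lrat near 0.

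Markers of other cells of the liver lay on the lower side too. At an unadjusted p under 0.05, genes of any kind below 10 CPM were also more often lower than higher. Lymphocyte markers had a median of -0.36, and 5 of 18 had an unadjusted p under 0.05 on the lower side, where 3.03% of all genes lay. Those of lowest p were the B cell receptor component Cd79a at -0.71 ± 0.23 (SE), the antibody chains Igkc at -0.66 and Ighm at -0.49, and the T cell receptor chain Trbc2 at -0.60. Markers of infiltrating macrophages had a median of -0.36 with 3 of 15 past an unadjusted p of 0.05 on the lower side: Gpnmb, a glycoprotein of lipid-loaded macrophages, at -1.47, the elastase Mmp12 at -1.10 and the fractalkine receptor Cx3cr1 at -0.39. That macrophage count was 0 and the median -0.23 without B6F control replicate 4, whose Gpnmb of 13.7 CPM compares with 0.979 CPM at the median of its group. Cholangiocyte markers had a median of -0.24 with 3 of 8 past the same limit (Muc1, Sox4 and Krt19), and erythroid markers a median of -0.44 with 2 of 6 past it (Hba-a1 and Hbb-bs), where the near-identical globin genes may share reads. The cholangiocyte median was -0.14 without B6F control replicate 5, and the erythroid one -0.27 without DBAF control replicate 6. The lymphocyte median was -0.24 without B6F control replicate 6. The erythroid count was 1 without DBAM high isoleucine replicate 3 and 3 without both libraries in doubt.

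Sinusoidal endothelial markers had a median of -0.14, with 12 of 14 estimates under 0 and 2 past an unadjusted p of 0.05 (Bmp2 and Gpr182). By class that median was 0.11 in B6F, -0.22 in DBAF and -0.34 in DBAM, so B6F went the other way. Periportal hepatocyte genes had a median of -0.14 as well, -0.09 without B6F control replicate 4, with 12 of 13 under 0 and 1 past that limit, Pck1. Kupffer cell markers had a median of 0.02, with 0 of 15 past an unadjusted p of 0.05 in edgeR's test and 4 of 15 bounded. The difference from the other macrophage list was not tested. The 12 hepatocyte markers had a median of -0.04 with 10 bounded and none past it; without both libraries in doubt 7 were bounded and 1 was past it. Summed over each list, high isoleucine libraries held 131 to 502 CPM of stellate and collagen genes (median 341) and controls 226 to 619 CPM (median 397). By class the median of that sum was 469.8 CPM with high isoleucine and 455.1 CPM in controls of B6F, 340.8 and 396.6 CPM in DBAF, and 282.2 and 294.5 CPM in DBAM, so it was the higher one with high isoleucine in B6F. The lymphocyte sum was 14.9 to 63.4 CPM (median 24.8) with high isoleucine and 19.0 to 145 CPM (median 29.7) in controls, and the infiltrating macrophage sum 41.9 to 124 CPM (median 59.2) with high isoleucine and 51.3 to 288 CPM (median 65.6) in controls. The ranges overlapped in every list, and none of these markers was at 0 in a whole diet group. In whole liver, fewer cells of a type and less RNA per cell cannot be told apart, and the part that these cells play in the lower values of Fbln1, Eln, Muc1 or the collagens was not tested.

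**Figure D3:**
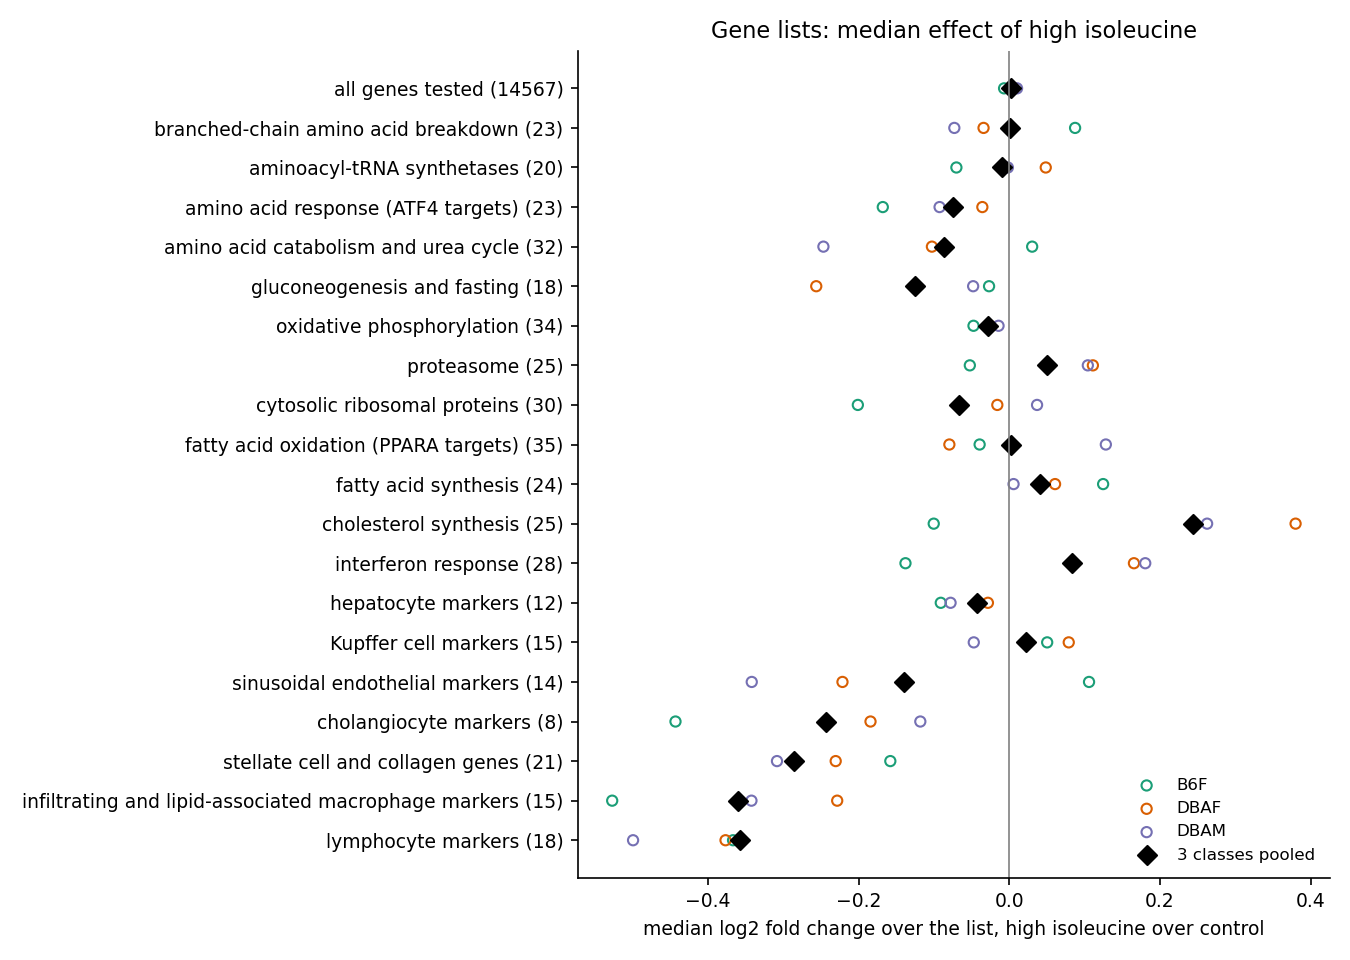
Median log2 fold change, high isoleucine over control (horizontal axis), of 19 gene lists and of all genes tested, with the number of genes tested in brackets: black diamonds are the pooled fit and open circles B6F, DBAF and DBAM. Lymphocyte, infiltrating macrophage, stellate and cholangiocyte lists lie left of 0 in all classes, and the cholesterol list lies left of 0 in B6F and right of 0 in DBAF and DBAM.

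Genes that break down branched-chain amino acids stayed within narrow limits. All 23 of 25 listed genes that passed the filter were bounded, against 61.5% of all genes, with estimates from -0.08 to 0.07 and a median of 0.000275. None of the 23 had an unadjusted p under 0.05. The share of 61.5% is not matched for level: the bound held for 88.3% of genes at 10 to 100 CPM and 84% above that. Without both libraries in doubt all 23 were still bounded and 1 had an unadjusted p under 0.05, Bcat2 at -0.13 ± 0.06 (SE; adjusted p 0.351 in edgeR's test). Class estimates were wider, with medians of 0.09 in B6F, -0.03 in DBAF and -0.07 in DBAM.

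Bckdha, a subunit of the branched-chain ketoacid dehydrogenase, had 195, 237 and 284 CPM (lowest, median, highest) with high isoleucine and 198, 265 and 287 CPM in controls of B6F. In DBAF it had 184, 249 and 283 CPM with high isoleucine and 240.0, 249 and 279 CPM in controls, and in DBAM 239, 265 and 358 CPM with high isoleucine and 269, 298 and 357 CPM in controls. Its log2 fold change was -0.08 ± 0.07 (SE). Bcat2, the transaminase, was at -0.07 ± 0.07 (SE), the kinase Bckdk at -0.00 ± 0.05 (SE) and the phosphatase Ppm1k at 0.01 ± 0.10 (SE). Downstream, the isoleucine-specific dehydrogenases Acadsb and Hsd17b10 were at 0.03 and -0.07, the thiolase Acat1 at -0.03, and the propionyl-CoA carboxylase subunits Pcca and Pccb both at 0.01.

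**Figure D4:**
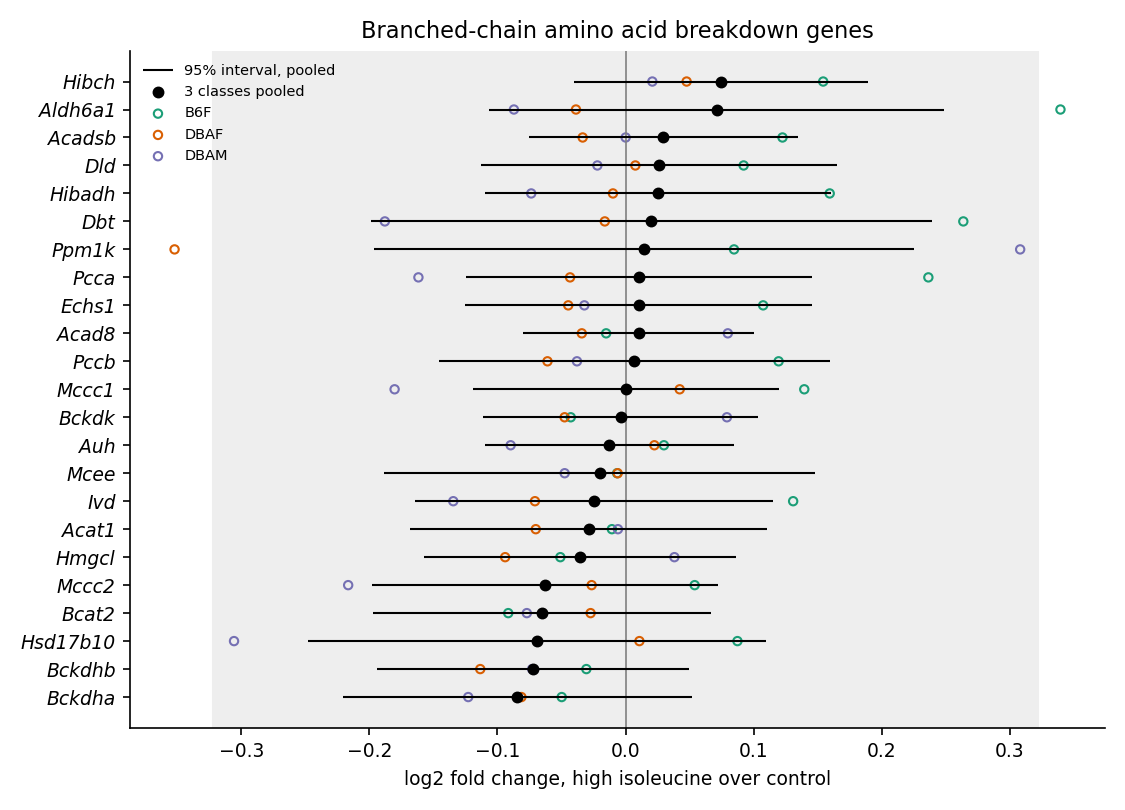
Log2 fold change of each branched-chain amino acid breakdown gene, high isoleucine over control (horizontal axis): black points and lines are the pooled estimate and its 95% interval, open circles the class estimates, and the grey band the range from -0.322 to 0.322. All 23 pooled intervals lie inside the band, while single classes such as DBAF for Ppm1k lie outside it.

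Among 23 tested genes that ATF4 induces on amino acid shortage, 18 had an estimate under 0, and 4 had an unadjusted p under 0.05 on the lower side, where 3.03% of all genes lay: Ddit3, Gdf15, Sesn2 and Nupr1. Gdf15, a circulating stress hormone, was at -0.56 ± 0.22 (SE), with medians of 2.96 and 5.20 CPM in B6F, 1.42 and 2.23 CPM in DBAF and 1.28 and 1.86 CPM in DBAM, high isoleucine before control. Sesn2, a leucine sensor, was at -0.19 and Nupr1, a stress-induced chromatin protein, at -0.31. The list median was -0.07, and 8 of 23 were bounded (34.8%, against 61.5% of all genes), among them Atf4 itself at 0.04 ± 0.08 (SE). Without DBAM high isoleucine replicate 3 the median was -0.17, with 6 of 24 past the limit and 6 bounded, and without both libraries in doubt -0.14, with 4 of 23 past it and 6 bounded. Fgf21, a hormone of the fasted and protein-restricted liver, was at -0.21 ± 0.20 (SE) and the pseudokinase Trib3 at -0.07 ± 0.15 (SE), or -0.17 ± 0.12 (SE) without DBAM high isoleucine replicate 3 and -0.22 ± 0.11 (SE) without both; Asns, the asparagine synthetase, was below the filter and not tested. Of 26 genes that carry amino acid supply to mTORC1, 22 were bounded, with a median of 0.01.

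Most members of several other lists were bounded, as were most genes of any kind above 10 CPM. All 20 aminoacyl-tRNA synthetases, all 34 oxidative phosphorylation genes, all 25 proteasome genes and all 12 pericentral hepatocyte genes tested were bounded, as were 26 of 28 complement and coagulation genes. Without both libraries in doubt, 31 of the 34 oxidative phosphorylation genes and 23 of the 28 complement genes were bounded. Cytosolic ribosomal protein genes were bounded in 28 of 30 cases with a median of -0.07 and 29 of 30 estimates under 0; 0 had an unadjusted p under 0.05 in edgeR's test, but 10 did without DBAM high isoleucine replicate 3 and 13 without both libraries in doubt. Of 28 interferon response genes none had an unadjusted p under 0.05 and 13 were bounded, with a median of 0.08.

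Genes of gluconeogenesis and fasting lay slightly lower, with the lowest class median in DBAF. Of 18 tested, 8 had an unadjusted p under 0.05 on the lower side, against 3.03% of all genes, and 6 were bounded, with a median of -0.13. Without both libraries in doubt the number was 4, against 5.72% of all genes, and the median -0.07. Without B6F control replicate 4 the median was -0.08. By class the median was -0.03 in B6F, -0.26 in DBAF and -0.05 in DBAM, and 5 of 18 genes had the same sign in all 3 classes. Pck1, which catalyses the committed step from oxaloacetate, had medians of 2361 and 2424 CPM in B6F, 1266 and 2133 CPM in DBAF and 1520.0 and 1422 CPM in DBAM, with high isoleucine before control. Of the class values DBAF was lowest, at -0.69 on the log2 scale, though no gene was called in the test between classes, and the pooled value was -0.27 ± 0.11 (SE). Fbp1, the bisphosphatase of the pathway, was at -0.18 ± 0.08 (SE), and Gadd45b and Sik1, which fasting signals induce, at -0.47 ± 0.17 (SE) and -0.52 ± 0.21 (SE). Immediate early genes, which respond within minutes to handling and signalling, had a median of -0.18 with 3 of 17 past an unadjusted p of 0.05 on the lower side (Klf4, Nr4a1 and Egr1), or a median of -0.28 without DBAM high isoleucine replicate 5, and no time of sampling is given beside these values.

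Of 24 fatty acid synthesis genes 13 were bounded and none had an unadjusted p under 0.05. Fasn, the fatty acid synthase, was at 0.19, Scd1, the desaturase, at 0.09 ± 0.28 (SE) and Srebf1, their regulator, at -0.09. Of 20 apolipoprotein and lipoprotein genes, 15 had an estimate under 0 and 12 were bounded, with a median of -0.06. An unadjusted p under 0.05 was met by 15% of them, against 6.25% of all genes. Those genes were Apoc2, an activator of lipoprotein lipase, at -0.20, Tm6sf2, which acts in lipoprotein secretion, at -0.18, and the lipid transfer protein Mttp at 0.19. Without both libraries in doubt 2 were past that limit on the higher side and 6 on the lower side, with a median of -0.13. Of all genes, 7.24% and 5.72% were then past it on those sides. The list median was -0.11 without DBAM high isoleucine replicate 3. Fatty acid oxidation genes had a median of 0.0020 with 26 of 35 bounded and none past an unadjusted p of 0.05. Among 24 bile acid and sterol genes, 18 were bounded and 3 had an unadjusted p under 0.05 (12.5%, against 6.25% of all genes). These were the repressor Nr0b2 (SHP) at -0.45 ± 0.14 (SE), Cyp7b1, a sterol hydroxylase of the alternative pathway, at 0.55 ± 0.18 (SE), and the bile salt export pump Abcb11 at 0.16. Nr0b2 had its lowest class value in DBAF, with 12.3 to 18.5 CPM with high isoleucine and 19.6 to 47.1 CPM in controls, which did not overlap. Cyp7a1, the rate-limiting enzyme of the classical pathway, was at -0.02 ± 0.26 (SE).

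Other lists had few genes past an unadjusted p of 0.05, a limit that 6.25% of all genes passed. Of 12 methionine cycle genes, Pemt, which methylates phosphatidylethanolamine, was at -0.16 ± 0.06 (SE) and Cbs, the first enzyme of transsulfuration, at -0.14 ± 0.06 (SE), and the list median was -0.03. Of 32 urea cycle and other amino acid catabolic genes 19 were bounded (59.4%, against 61.5% of all genes), with a median of -0.09. Those past the limit, at the same share as all genes (6.25%), were Hgd of tyrosine breakdown at -0.15 and the tyrosine transaminase Tat at -0.31. The class medians were 0.03 in B6F, -0.10 in DBAF and -0.25 in DBAM. Of 23 unfolded protein response genes 17 were bounded, with a median of 0.01. Past the limit (8.7%) were Herpud1 and Syvn1, both of the degradation machinery of the endoplasmic reticulum, at -0.31 and -0.23.

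Genes encoded on mitochondrial DNA had a median of -0.10 over 13 genes, with -0.47 in DBAM and 0.11 in B6F. The one past the limit, mt-Atp6, a subunit of ATP synthase, had 284, 456 and 1458 CPM (lowest, median, highest) with high isoleucine and 393, 2257 and 5800.0 CPM in controls of DBAM, and a pooled log2 fold change of -0.83 ± 0.36 (SE). Its levels spread several-fold within every group, and the nuclear oxidative phosphorylation genes described above were bounded.

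Among genes that differ between the sexes, Elovl3, a male-biased elongase of long fatty acids, had medians of 8.45 and 5.67 CPM in B6F, 8.75 and 8.80 CPM in DBAF and 193 and 89.3 CPM in DBAM, high isoleucine before control, and a log2 fold change of 0.51 ± 0.17 (SE). Onecut1 (HNF6), a liver transcription factor listed with the growth hormone and IGF axis, had a log2 fold change of 0.80 ± 0.28 (SE). Its medians were 2.85 and 2.34 CPM in B6F, 17.4 and 8.50 CPM in DBAF and 26.2 and 13.2 CPM in DBAM. The 22 male-biased genes had a median of 0.02, with 11 estimates over 0, 11 under 0 and 3 bounded. Of these genes, 2 were past the limit, on the higher side. Their class medians were -0.70 in B6F, 0.04 in DBAF and 0.20 in DBAM. The 27 female-biased genes had a median of 0.02 with none past the limit and 3 bounded. Their class medians were 0.14 in B6F, 0.15 in DBAF and -0.41 in DBAM. The 24 cell cycle genes had a median of -0.03 with none past it and 7 bounded.

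Cholesterol synthesis genes lay higher, unevenly over the classes. The 25 genes had a median of 0.24, with -0.10 in B6F, 0.38 in DBAF and 0.26 in DBAM, and 3 of 25 had an unadjusted p under 0.05 on the higher side, against 3.23% of all genes. Without B6F control replicate 4 that number was 13 of 25 with a median of 0.30, and without both libraries in doubt it was 14 of 25, beside 1 on the lower side, with a median of 0.33, where 7.24% of all genes were on the higher side. The median was 0.13 without DBAF high isoleucine replicate 3. Stard4, a carrier of sterols between membranes, had medians of 15.7 and 15.3 CPM in B6F, 38.9 and 28.9 CPM in DBAF and 79.7 and 48.04 CPM in DBAM, high isoleucine before control, and a log2 fold change of 0.36 ± 0.12 (SE). Hmgcs1, the synthase that makes HMG-CoA, was at 0.40 ± 0.16 (SE), with medians of 94.7 and 96.8 CPM in B6F, 33.9 and 26.6 CPM in DBAF and 43.2 and 27.02 CPM in DBAM. Hsd17b7, a ketoreductase of the later steps, was at 0.27 ± 0.13 (SE), and its highest control value in B6F, 43.4 CPM, was that of replicate 4. The lanosterol demethylase Cyp51 was at 0.51 ± 0.26 (SE).

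The promoters of Hmgcs1 and Hsd17b7 are shown because both genes had an unadjusted p under 0.05 here and a tested difference from B6M, described after them. The sequences are RefSeq's on GRCm38.p6, up to 250 bases before the start, and for Hsd17b7 the 36 bases nearest RefSeq's start, which lie inside the annotated gene, are left out. They are read 5′ to 3′ towards the gene, and the capitals mark matches to TCACNCCAC (the core of a sterol response element, which SREBP-2 binds) or to CCAAT, on either strand, so that CCAAT on the opposite strand reads ATTGG.
Hmgcs1, chr13:119690101-119690350, plus strand: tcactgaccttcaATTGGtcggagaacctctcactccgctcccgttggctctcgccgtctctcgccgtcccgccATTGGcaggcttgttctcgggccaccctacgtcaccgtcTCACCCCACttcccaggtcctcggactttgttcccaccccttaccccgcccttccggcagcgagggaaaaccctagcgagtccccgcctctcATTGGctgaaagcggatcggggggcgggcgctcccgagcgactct
Hsd17b7, chr1:169969242-169969455, minus strand: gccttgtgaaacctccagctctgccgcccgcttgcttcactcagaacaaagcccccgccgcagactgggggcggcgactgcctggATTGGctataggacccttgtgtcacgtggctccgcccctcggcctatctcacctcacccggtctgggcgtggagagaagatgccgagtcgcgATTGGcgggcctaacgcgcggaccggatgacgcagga

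Hmgcs1 held 1 match to TCACNCCAC and 3 to CCAAT, while the printed stretch of Hsd17b7 held 0 and 2 and its full 250 bases 0 and 3. The search left out the promoters of 1 chromosome. Of the 25 cholesterol genes, 17 had RefSeq promoters among those searched, 20 in all. In the 250 bases before the start, 1 of the 20 held TCACNCCAC and 16 of the 20 held CCAAT. Among the 32851 promoters of that length that were searched, 1.05% held TCACNCCAC and 33.8% held CCAAT. The 2 motifs share no overlapping letters in the printed sequences, and a match describes letters, not binding.

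The 3 classes did not differ detectably from each other in their response. In a single fit of the 36 libraries, with a mean per group, 0 genes were called within B6F, DBAF or DBAM (0% each). The test was edgeR's quasi-likelihood test with Benjamini-Hochberg adjustment. At an unadjusted p under 0.05 there were 913 genes in B6F (6.27%), 335 in DBAF (2.3%) and 1278 in DBAM (8.77%). The test for any difference of the effect between the 3 classes called 0 genes (0%) in edgeR and 4 in DESeq2, with 758 (5.2%) at an unadjusted p under 0.05 in edgeR.

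Ces2g, a carboxylesterase of liver, had the lowest p of that test. Its levels in B6F were 30.1, 35.4 and 37.8 CPM (lowest, median, highest) with high isoleucine and 25.2, 26.6 and 29.7 CPM in controls, without overlap. In DBAM they were 22.6, 27.6 and 31.2 CPM with high isoleucine and 28.2, 33.7 and 36.7 CPM in controls. The log2 fold changes were 0.36 in B6F, -0.11 in DBAF and -0.28 in DBAM, with an adjusted p of 0.269 for the difference in edgeR's test. Fbxo32, the ubiquitin ligase atrogin-1, had 3.20, 3.31 and 4.42 CPM with high isoleucine and 1.42, 1.80 and 2.35 CPM in controls of DBAM, and log2 fold changes of -0.26 in B6F, -0.03 in DBAF and 0.92 in DBAM (adjusted p 0.289 in edgeR's test). Saa1, an acute phase protein whose reads may be shared with Saa2, reached 1373 CPM in a DBAF high isoleucine library where the median of that group was 34.02 CPM; its pooled value of 1.35 ± 0.53 (SE) came with 8 of 18 libraries above their control mean.

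Set against B6M, the 3 classes differed in their response for 545 of 14727 genes (3.7%), 303 higher (2.06%) and 242 lower (1.64%), in edgeR's test of the difference of the effects with Benjamini-Hochberg adjustment. In the same 48-library fit the mean effect of the 3 classes called 0 genes (0%), and the effect within B6M called 210 higher (1.43%) and 195 lower (1.32%). The number moved with single libraries, between 62 without B6M high isoleucine replicate 6 and 1232 without DBAM high isoleucine replicate 3, and was 1739 without both libraries in doubt, 320 with the title letter as a replicate block and 8 with sums over title numbers.

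Of the 53 lists, cholesterol synthesis held the most genes that differed. In B6M, 14 of 25 genes fell with high isoleucine, with a median of -1.04, and 15 of 25 differed from the 3 classes, all with the higher effect in the 3 classes and a median difference of 1.30. Sqle, the squalene epoxidase, and Idi1, an isomerase of the isoprenoid steps, were named after their values were seen because their differences were the largest, 4.66 ± 0.98 (SE) and 3.51 ± 0.71 (SE). Sqle had 0.872, 8.25 and 19.6 CPM with high isoleucine and 0.442, 2.69 and 10.01 CPM in controls of DBAM, and in B6M 0.320, 0.617 and 1.17 CPM with high isoleucine and 1.33, 13.7 and 32.3 CPM in controls. The B6M groups did not overlap and the DBAM groups did. Hsd17b7 had a log2 fold change of 0.27 in the 3 classes and -1.43 in B6M, and a difference of 1.70 ± 0.27 (SE; adjusted p 0.00134 in edgeR's test). The count of 15 cholesterol genes was 7 to 17 with a library left out, 19 without both libraries in doubt and 2 with sums over title numbers.

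**Figure D5:**
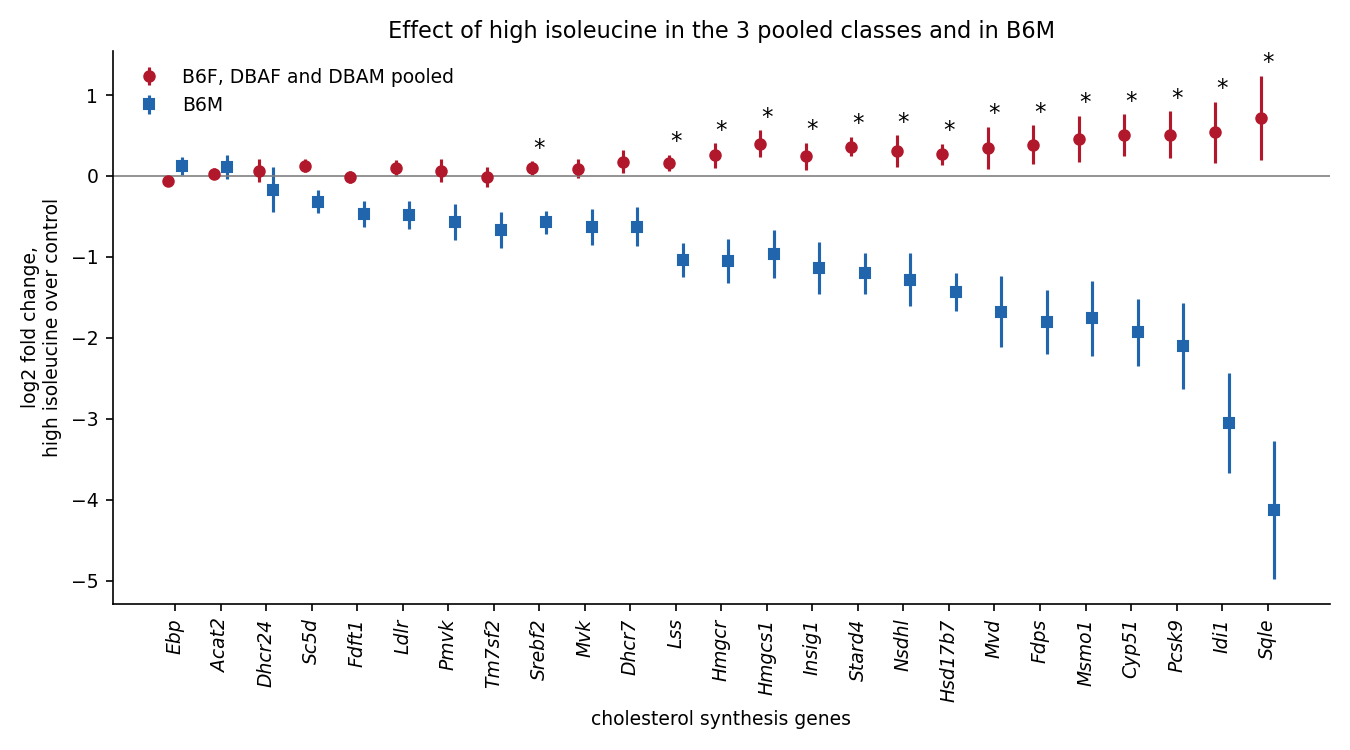
Log2 fold change, high isoleucine over control (vertical axis), of each cholesterol synthesis gene, with the pooled 3 classes left and B6M right of each pair; bars are the SE and a star marks an adjusted p under 0.05 for the difference. The pooled values lie between -0.06 and 0.72, and Sqle and Idi1 in B6M lie at -4.12 and -3.05.

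Beyond that list, Cfd, the complement protease adipsin made mainly by fat cells, had 0 to 0.0380 CPM in DBAF, 0.216 to 2.54 CPM in B6F and 0.110 to 1.16 CPM in DBAM with high isoleucine, against 8.67 to 193 CPM in B6M with high isoleucine. Control livers held 0 to 1.90, 0.201 to 1.47, 0.553 to 5.98 and 0 to 9.71 CPM in the same order of classes. Its difference was -6.81 ± 1.56 (SE). The chemokine Cxcl1 differed by -2.27 ± 0.38 (SE), Pon3 by 0.58 ± 0.10 (SE), Cyp4a14, a fatty acid hydroxylase induced by PPARA, by 1.253 ± 0.21 (SE), and the mitochondrial cristae protein Chchd6 by -1.38 ± 0.25 (SE). Cyp4a14 had medians of 5985 and 6389 CPM in B6F, 5610.0 and 6269 CPM in DBAF and 1661 and 1173 CPM in DBAM, and in B6M 2945 and 7302 CPM, high isoleucine before control. Pon3 was at -0.42 in B6M, and S100a11 at 0.61, with a difference of -1.11 for S100a11 (adjusted p 0.0148 in edgeR's test); this contrast holds the same 36 libraries, so it is no independent check of those genes.

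Low isoleucine gave far more calls in the same classes. Against the same 18 control libraries, 5171 of 14502 genes (35.7%) were called, 2454 higher (16.9%) and 2717 lower (18.7%), by edgeR's quasi-likelihood test with Benjamini-Hochberg adjustment. Since both diets share those controls, their values are only set side by side. For interferon response genes the median was 0.08 with high isoleucine and -1.15 with low isoleucine, where 28 of 28 fell. Ribosomal protein genes had a median of -0.07 with high and 0.30 with low isoleucine, where 28 of 30 rose, and gluconeogenic and fasting genes -0.13 with high and 0.40 with low isoleucine, where 9 rose and 1 fell. Stellate and collagen genes had -0.29 with high and -0.03 with low isoleucine, where 1 rose and 2 fell, and branched-chain breakdown genes 0.000275 with high and -0.07 with low isoleucine, where 2 rose and 5 fell.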

How the data were processed

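Liver RNA libraries were prepared with a stranded kit, named as polyA-enriched in one label field and as total RNA in another. The authors deposited expected counts per Ensembl gene on GRCm38.p5, per the labels' protocols; aligner, counter and strand setting: not given in the sources used here. R 3.4.3 with edgeR and limma is listed in the submitters' processing notes. Of the nonzero values, 9.54% were not whole, so counts were rounded; 1 incomplete line was dropped, and all columns were matched to libraries by title. Genes were filtered with filterByExpr and scaled by TMM, and class plus diet was fitted with edgeR 4.0.16's quasi-likelihood test in R 4.3.3 with Benjamini-Hochberg adjustment at 0.05 over all genes tested. The common biological coefficient of variation was 0.208 and the median SE of a log2 fold change 0.0911. DESeq2 1.42.0, limma 3.58.1 and the settings of the closing section were alternatives. Differences between classes and from B6M were interaction contrasts, the second over 48 libraries. The fit was tested on simulated counts drawn independently for each library, so that test cannot speak to correlation between libraries. Levels are CPM on totals scaled by TMM over all 72 libraries, comparable between libraries for one gene but not between genes of different length.

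Named genes were, by rule, the 12 of lowest p on each side with the same sign in 3 classes and a mean of at least 1 CPM, up to 4 of lowest p per list, a panel of metabolic genes, 6 genes of each difference test and 6 of narrowest interval. The comparison, the gene lists and the rule were chosen with earlier results of these data known. Numbers in the titles recur within a diet group and not across diets, so they cannot pair the groups; the correlation of libraries with the same number was 0.23. Promoters came from RefSeq's table on GRCm38.p6. Antisense and overlapping genes could not be told apart from strand.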

Additional observations from a re-analysis of the deposited data

Results flagged for a closer look

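Of 126 groups of 6 libraries looked at for a library that stands apart from the other 5, 18 had such a library. Any group with equal values in all libraries is counted in the 126 but could not be marked. Chance alone marks about 1 in 20 groups where values are normally distributed, which was not tested for these CPM. Among the genes of the pooled comparison, Ddit3 was 12.95 CPM in DBAM high isoleucine replicate 3, with 8.052 CPM in the next library. S100a11 was low at 1.975 CPM in DBAF high isoleucine replicate 1 (next 2.93 CPM). Control libraries stood apart in Fbln1, at 1.452 CPM on the low side in B6F replicate 3 and 1.139 CPM on the high side in DBAM replicate 5. Muc1 was 5.683 CPM in DBAF control replicate 5, where the next library had 1.546 CPM, Pon3 39.9 CPM in DBAM control replicate 5 and Zfp790 4.358 CPM, on the low side, in DBAF control replicate 2.

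Genes that differed from B6M had such libraries too. Hsd17b7 was high in 1 control library of each pooled class, at 43.41 CPM in B6F replicate 4, 32.85 CPM in DBAF replicate 5 and 29.46 CPM in DBAM replicate 5. Cfd was high in control libraries only, at 1.899 CPM in DBAF replicate 6, 5.976 CPM in DBAM replicate 3 and 9.711 CPM in B6M replicate 5. Cxcl1 was 5.243 CPM in DBAF high isoleucine replicate 6, and Chchd6 5.853 CPM in B6F high isoleucine replicate 5 and 3.791 CPM in DBAF control replicate 2. The Y-linked Ddx3y was 15.86 CPM in DBAM high isoleucine replicate 3, on the low side, and 0.5681 CPM in B6F control replicate 4, where the other 5 libraries had 0.

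The effect of high isoleucine differed between the 3 classes and B6M for 545 genes by the interaction contrast. The 6 of lowest p had differences in log2 effect, 3 classes minus B6M, of -6.811 for Cfd, 1.7 for Hsd17b7, -2.275 for Cxcl1, 0.5785 for Pon3, 1.253 for Cyp4a14 and -1.38 for Chchd6.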

How the results depend on the processing

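The 24 leading genes kept their sign under all 52 settings tried for each, which their choice by low p and equal sign in the 3 classes largely fixes. The medians of 24 of 53 lists kept theirs, while those of the other 29 changed sign under some setting. The pooled call count of 0 was 1 with limma voom (Mup18, of a family of near-identical genes), 2 with voom and quality weights (Mup18 and Ddit3), and 0 to 1 with a library left out; it was 1 without both libraries in doubt, an alternative chosen after seeing the data. It stayed 0 with DESeq2 (924 genes at an unadjusted p under 0.05), RLE factors (886), the title letter as a replicate block (842), the title number as a random replicate block (483) and sums over title numbers (527). Leaving out a library gave 700 to 1441 such genes and 8632 to 9085 bounded genes. Settings with fewer samples bounded fewer genes: 8248 of 15823 with sums over title numbers, against 8957 of 14567. Leaving out a whole class gave 7158 of 13972 without B6F, 6416 of 14301 without DBAF and 7924 of 14204 without DBAM. Within classes, where no gene was called, DESeq2 called 3 genes in B6F, 2 in DBAF and 13 in DBAM, 1 was called in B6F with no filter (Myo7b) or with sums over title numbers (Capn11), and the fit of all 72 libraries called 1 in DBAF (Suv39h2) and 2 in DBAM (Cpne5 and Fbxo32). Between the 3 classes DESeq2 called 4 (Gm32540, Ces2g, Fbxo32 and Car14). The 545 genes that differed from B6M were 200 with no filter, 320 with the title letter as a replicate block, 994 in the fit of all 72 libraries, 974 with DESeq2, 1739 without both libraries in doubt and 8 with sums over title numbers, which leave fewer samples. With a library left out, an alternative added after seeing the data, they ranged from 62 to 1232, and 12 of 48 libraries moved the number by over 1.5 times: 972 without B6F control replicate 4, 360 without replicate 6 and 354 without B6F high isoleucine replicate 3; 341 without DBAM control replicate 3 and 1232 without DBAM high isoleucine replicate 3; and, in B6M, 86, 339, 194 and 837 without control replicates 2, 3, 4 and 6, and 843, 348 and 62 without high isoleucine replicates 2, 3 and 6. The 15 cholesterol genes that differed were 2 with sums over title numbers. Counts of list members without the libraries in doubt, given with the lists, were also added after seeing the data. The cause of these changes was not tested. Below 1 CPM few genes were bounded, so depth limits what those values show.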
